A study of Mus musculus with 6 samples.

Results

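Transcript measurements in quantitative PCR (qPCR) are usually divided by those of a reference gene, a gene whose transcript is taken to stay level between the samples compared. The 8 reference genes Actb, Gusb, Hprt, Tbp, Ppia, Ywhaz, Eef1a1 and Polr2a were chosen by name and found by their Ensembl identifiers, giving 8 of the 47069 genes in the count table. Each was measured in 6 bulk RNA-seq libraries of LβT2 cells, a mouse pituitary gonadotrope line. All 6 samples were at passage 14 and had received gonadotropin-releasing hormone (GnRH) at 2 nM for 40 min, the agent that drives gonadotropes. In the fresh group, 3 samples of cells were lysed directly in guanidinium buffer, and the paper describes cold storage of such lysates. In the RNA-Best group, 3 samples were stored in the preservative RNA-Best, at 4°C and over no less than 4 days, before RNA isolation. The comparison asks whether preservation in RNA-Best, against direct lysis, moved genes that are used as fixed points.

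Reference genes are drawn from unrelated cell functions, so that a change in a single pathway should not move all of them. Most are abundant in every cell type. Several of the classical choices, such as Actb, Ppia, Ywhaz and Eef1a1, have left processed pseudogenes in the genome, which are reverse-transcribed copies of the spliced mRNA and can be hard to separate from the parent gene in short reads. Gonadotropes produce the gonadotropin hormones and respond to GnRH with a burst of immediate-early transcription, to which reference genes are meant not to belong.

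Depth was 14477304 to 47438746 counts per library in the fresh group and 4909418 to 11999363 in the RNA-Best group, so the 2 groups differed in depth. Gonadotrope markers were present, with Cga at 1813 ± 19.5 CPM (counts of a gene scaled to a common library total) and Gnrhr at 119 ± 8.73 CPM in fresh cells (SD, n = 3), but Fshb was at 0 in all 6 libraries. Of 8 markers of other pituitary lineages, 3 (Prl, Pou1f1 and Sox2) were at 0 throughout and the summed level of the list was at most 2.39 CPM. Of 6 markers of stroma, vessel and blood, 2 (Col3a1 and Ptprc) were at 0 and the summed level was 193 to 195 CPM in fresh and 197 to 211 CPM in RNA-Best libraries, most of it the endothelial cadherin Cdh5. The part of these levels in the results below was not tested. No 2 libraries of a group agreed so closely that they had to be counted as 1. In bulk RNA, fewer cells and less RNA per cell cannot be told apart. The labels do not state separate cultures within a group, so p-values measure only the spread between libraries, which may be technical.

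The sequences below show where short reads of these genes can be placed. Each of the first lines is a stretch of coding sequence as long as a read, which the annotation holds letter for letter in the gene and also in other genes. The Ppia stretch lies in 6 other annotated genes, among them the pseudogene Gm10123. The Ywhaz stretch lies in 2 other annotated genes, among them the pseudogene Gm4202, and the Eef1a1 stretch in the pseudogenes Gm13456 and Gm5869.
Ppia: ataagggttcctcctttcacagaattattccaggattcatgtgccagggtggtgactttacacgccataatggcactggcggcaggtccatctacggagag
Ywhaz: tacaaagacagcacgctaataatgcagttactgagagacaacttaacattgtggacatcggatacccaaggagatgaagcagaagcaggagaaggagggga
Eef1a1: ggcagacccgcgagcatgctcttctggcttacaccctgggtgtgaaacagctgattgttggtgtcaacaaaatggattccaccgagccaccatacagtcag
The remaining lines are the qPCR primers that the study listed for Eef1a1 and Gusb. In both genes the forward primer lies in exon 2 and the reverse primer in exon 3, within the coding sequence, and the amplicon is 71 bases in Eef1a1 and 90 bases in Gusb. Both sites of a pair occurred together in 1 annotated gene only, so exact matches to both sites set Eef1a1 apart from its annotated pseudogenes. All letters are in lower case because no primer crosses an exon junction.
Eef1a1 forward: cgaaccatcgaaaagtttga
Eef1a1 reverse: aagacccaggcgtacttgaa
Gusb forward: gaggatcaacagtgcccatta
Gusb reverse: gcctcaaaggggaggtga

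Of the 8 reference genes, 6 passed the 5% threshold of the edgeR test between RNA-Best and fresh cells. Of these, 4 were lower (Actb, Ppia, Ywhaz and Hprt) and 2 were higher (Polr2a and Tbp), while Gusb and Eef1a1 did not pass. Over all 14736 genes tested, 50.8% passed, 26.0% higher and 24.8% lower, so passing the test was common and the share of 6 of 8 is read against that background. The background covers genes of all levels past the filter and was not matched to the level of the 8. The changes were small. Ppia fell by 20.2% and Polr2a rose by 15.4%, with the other genes in between, and the median log2 fold change of the 8 was -0.08 against -0.01 for all genes tested. The groups did not overlap in 6 of the 8 genes, against 57.5% of all genes tested.

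**Figure D1:**
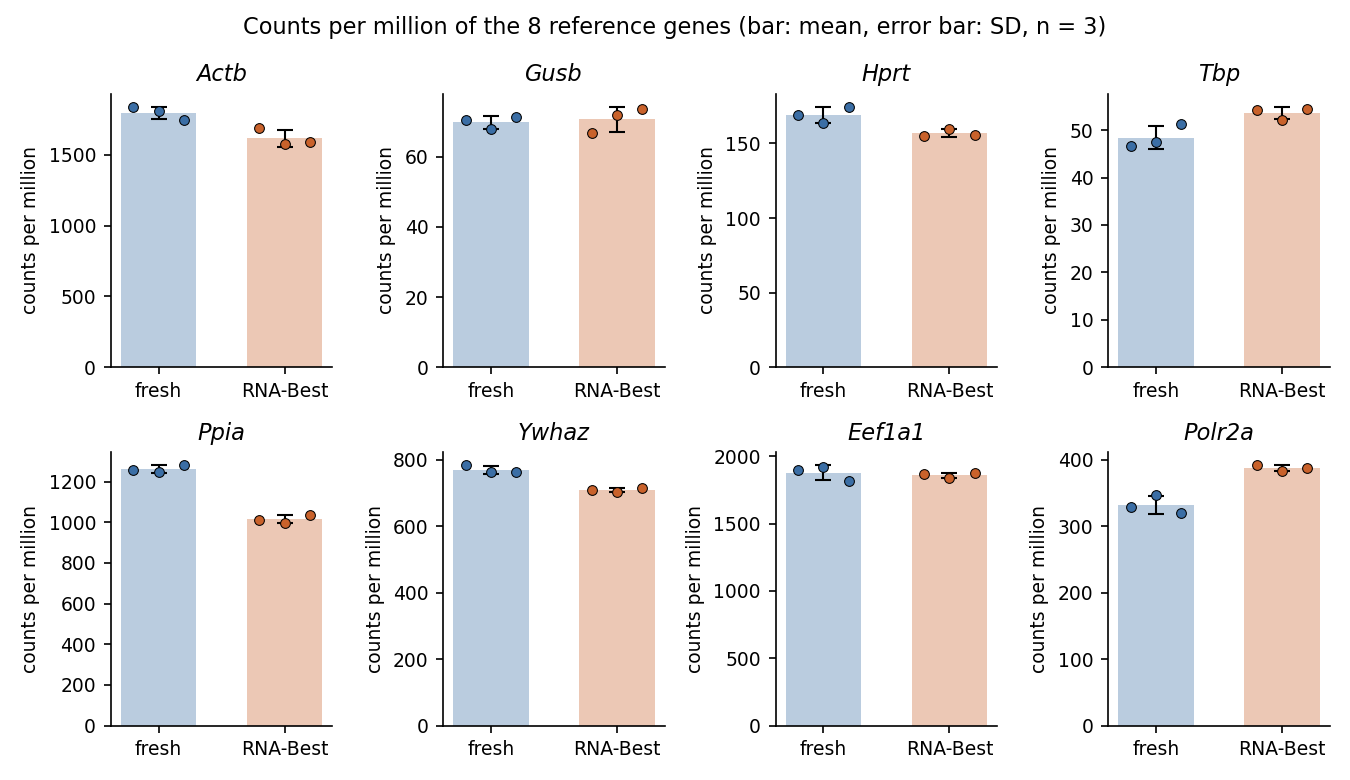
CPM of each reference gene in every library, with bars for the group means and error bars for the SD (n = 3). The 3 RNA-Best points lie below the 3 fresh points for Actb, Hprt, Ppia and Ywhaz and above them for Tbp and Polr2a. For Gusb they lie on both sides of the fresh points, from 66.7 to 73.6 CPM, and for Eef1a1 within the fresh range.

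Actb encodes cytoplasmic beta-actin, a main protein of the cytoskeleton (ENSMUSG00000029580, GRCm38 chromosome 5, 142903115 to 142906754, minus strand). It was at 1835, 1809 and 1749 CPM in fresh libraries 1 to 3 and at 1687, 1577 and 1588 CPM in RNA-Best libraries 1 to 3. All RNA-Best values lay below all fresh values, and RNA-Best library 1 was the closest to the fresh group. Actb fell by 10.9% (log2 fold change -0.17, SE 0.03; edgeR adjusted p = 5.42e-06). Its near paralog Actg1, the gamma form of cytoplasmic actin, moved in the same direction, from 1151 ± 14.5 to 987 ± 31.4 CPM (log2 fold change -0.23; edgeR adjusted p = 4.48e-09). Actb lost its call with an offset for gene length, where its log2 fold change was -0.05 (edgeR adjusted p = 0.123).

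Gusb encodes the lysosomal enzyme beta-glucuronidase (ENSMUSG00000025534, chromosome 5, 129989011 to 130003049, minus strand). Its level was 70.4, 67.9 and 71.4 CPM in fresh libraries 1 to 3 and 66.7, 71.9 and 73.6 CPM in RNA-Best libraries 1 to 3. The RNA-Best group held both the lowest and the highest value. The log2 fold change was 0.01 with a 95% interval from -0.08 to 0.10 (edgeR adjusted p = 0.839), which in percent runs from -5.24 to 7.34. Gusb rested on few counts, from 353 to 3219 per library.

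Hprt encodes the hypoxanthine phosphoribosyltransferase of purine salvage and is the only X-linked gene of the 8 (ENSMUSG00000025630, chromosome X, 52988137 to 53021659, plus strand). It was at 168.8, 163.9 and 174.8 CPM in fresh libraries 1 to 3 and at 155.0, 159.9 and 155.3 CPM in RNA-Best libraries 1 to 3. The groups were separate, with a gap smaller than the SD of the fresh group. Hprt fell by 8.09% (log2 fold change -0.12, SE 0.03; edgeR adjusted p = 0.00293). Hprt lost its call when every library was thinned to the smallest total (log2 fold change -0.10; edgeR adjusted p = 0.0905) and turned to 0.06 with the offset for gene length (edgeR adjusted p = 0.139). With a GC offset it was -0.26 (edgeR adjusted p = 2.65e-08).

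Tbp encodes the TATA-binding protein of the general transcription machinery and was the lowest in counts of the 8, from 256 to 2255 per library (ENSMUSG00000014767, chromosome 17, 15499888 to 15528379, plus strand). It was at 46.6, 47.5 and 51.3 CPM in fresh libraries 1 to 3 and at 54.4, 52.1 and 54.5 CPM in RNA-Best libraries 1 to 3. Fresh library 3 came within 1 CPM of RNA-Best library 2, but the groups did not overlap. The rise was 11.6% (log2 fold change 0.16, SE 0.05; edgeR adjusted p = 0.00693). This call was the least secure of the 6. Without RNA-Best replicate 3 the log2 fold change was 0.15 and the edgeR adjusted p was 0.0559.

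The annotation used here gives Tbp exons that sum to 13.6 kb, mostly from a transcript of 12794 bases, whereas its principal transcript has 1891 bases. An offset for the summed exon length turned its log2 fold change to -0.17 (edgeR adjusted p = 0.00651), and an offset for principal transcript lengths gave 0.27 (edgeR adjusted p = 1.23e-05). Of the summed exons, 19.0% overlap Pdcd2 on the opposite strand, and the libraries do not keep strand. Within that overlap, reads of Tbp and Pdcd2 cannot be told apart, and Pdcd2 was listed at 0 counts in all 6 libraries.

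Polr2a encodes the largest subunit of RNA polymerase II and rose the most (ENSMUSG00000005198, chromosome 11, 69733997 to 69758637, minus strand). It was at 328.2, 346.9 and 319.4 CPM in fresh libraries 1 to 3 and at 391.7, 382.9 and 386.9 CPM in RNA-Best libraries 1 to 3. The lowest RNA-Best value exceeded the highest fresh value by more than the SD of either group. The rise was 15.4% (log2 fold change 0.21, SE 0.03; edgeR adjusted p = 5.09e-07). It became 0.07 with the offset for summed exon length (edgeR adjusted p = 0.0473) and -0.07 with that for principal transcript lengths (edgeR adjusted p = 0.0312).

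Ppia encodes cyclophilin A, a peptidyl-prolyl isomerase that helps proteins fold, and fell the most (ENSMUSG00000071866, chromosome 11, 6415443 to 6419817, plus strand). It was at 1258, 1245 and 1282 CPM in fresh libraries 1 to 3 and at 1013, 995.4 and 1037 CPM in RNA-Best libraries 1 to 3. Within a group the libraries lay close together, with a coefficient of variation of 1.46% in fresh and 2.04% in RNA-Best, while the groups stood far apart. Ppia fell by 20.2% (log2 fold change -0.33, SE 0.03; edgeR adjusted p = 1.58e-12). In absolute size this change was larger than that of 76.4% of all genes tested and of 86.5% of the 52 genes at a similar level. The share at a similar level was 58.7% for Polr2a and from 3.61% for Gusb to 46.5% for Tbp among the remaining reference genes. With an offset for principal transcript lengths it shrank to -0.12 (edgeR adjusted p = 0.000249).

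Ywhaz encodes 14-3-3 zeta, an adaptor that binds phosphorylated proteins (ENSMUSG00000022285, chromosome 15, 36770770 to 36796929, minus strand). It was at 784.2, 761.8 and 763.5 CPM in fresh libraries 1 to 3 and at 708.4, 702.6 and 714.9 CPM in RNA-Best libraries 1 to 3. The groups were separate, with a coefficient of variation of 1.62% in fresh and 0.865% in RNA-Best libraries. Ywhaz fell by 8.79% (log2 fold change -0.13, SE 0.03; edgeR adjusted p = 6.94e-05). Its call held under all 20 other settings tried, with log2 fold changes from -0.21 with the GC offset to -0.10 with look-alike loci summed. That of Ppia held under all 20 as well, from -0.37 to -0.12.

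Eef1a1 encodes the translation elongation factor that brings aminoacyl-tRNA to the ribosome (ENSMUSG00000037742, chromosome 9, 78478449 to 78489151, minus strand). Its level was 1899, 1922 and 1816 CPM in fresh libraries 1 to 3 and 1867, 1838 and 1874 CPM in RNA-Best libraries 1 to 3. All 3 RNA-Best values lay within the fresh range, and over all 6 libraries the coefficient of variation was 2.06%, the lowest of the 8. The log2 fold change was -0.03 with a 95% interval from -0.08 to 0.03 (edgeR adjusted p = 0.381). It passed the threshold in other settings, at -0.08 with no filter on low counts (edgeR adjusted p = 0.0107) or with a GC offset (edgeR adjusted p = 0.00957), and at 0.09 with an offset for gene length (edgeR adjusted p = 0.00498). The shift with no filter was not particular to Eef1a1. All 8 genes moved down there, Gusb from 0.01 to -0.035, Ppia from -0.33 to -0.37 and Polr2a from 0.21 to 0.16.

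Gene length moved with these results. Among all genes tested, the median log2 fold change rose with the summed exon length, from -0.24 in the shortest of 20 bins to 0.37 in the longest. By summed exons, the 2 reference genes that rose are the longest of the 8. Genes within 10% of the length of Polr2a had a median of 0.14 beside its own 0.21, and genes of the length of Actb had a median of -0.12 beside its -0.17. Ppia at -0.33 lay below the median of -0.06 for its length and Ywhaz at -0.13 below -0.02, whereas Eef1a1 at -0.03 lay above -0.13 and Hprt at -0.12 above -0.18. Gusb, at 0.01, had the median of its length, 0.01. With lengths of principal transcripts, the median for genes of like length became -0.21 for Ppia, -0.12 for Tbp, 0.27 for Polr2a, 0.03 for Ywhaz and -0.03 for Gusb. Polr2a then lay below rather than above its median and Tbp above rather than below, and Ppia and Ywhaz lay below theirs with either length. Length and preservation were not varied separately here, and the part of length in the calls was tested only through the offsets.

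**Figure D2:**
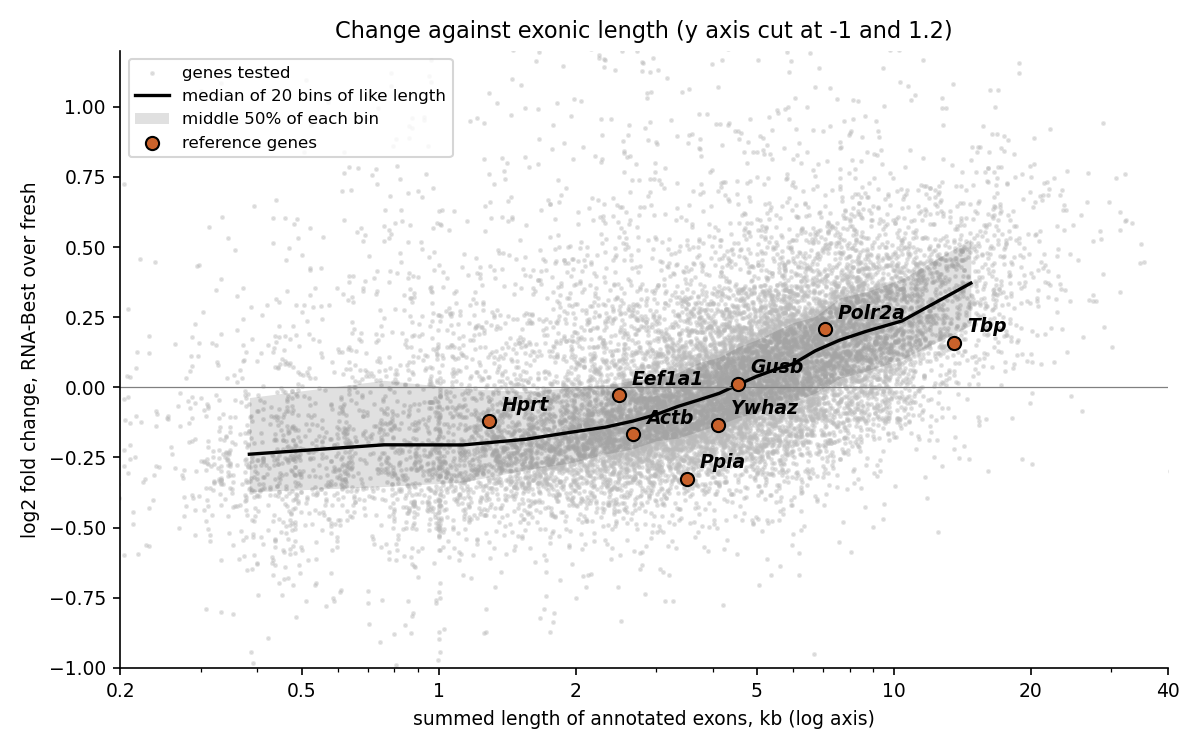
Log2 fold change of RNA-Best over fresh for all genes tested (grey points) against the summed length of annotated exons on a log axis, with the median and the middle 50% of 20 bins of genes of like length, and the 8 reference genes in orange. The median runs from -0.24 to 0.37, Ppia at -0.33 lies below the shaded band, and Tbp at 0.16 lies below the median for genes of its summed length.

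**Figure D3:**
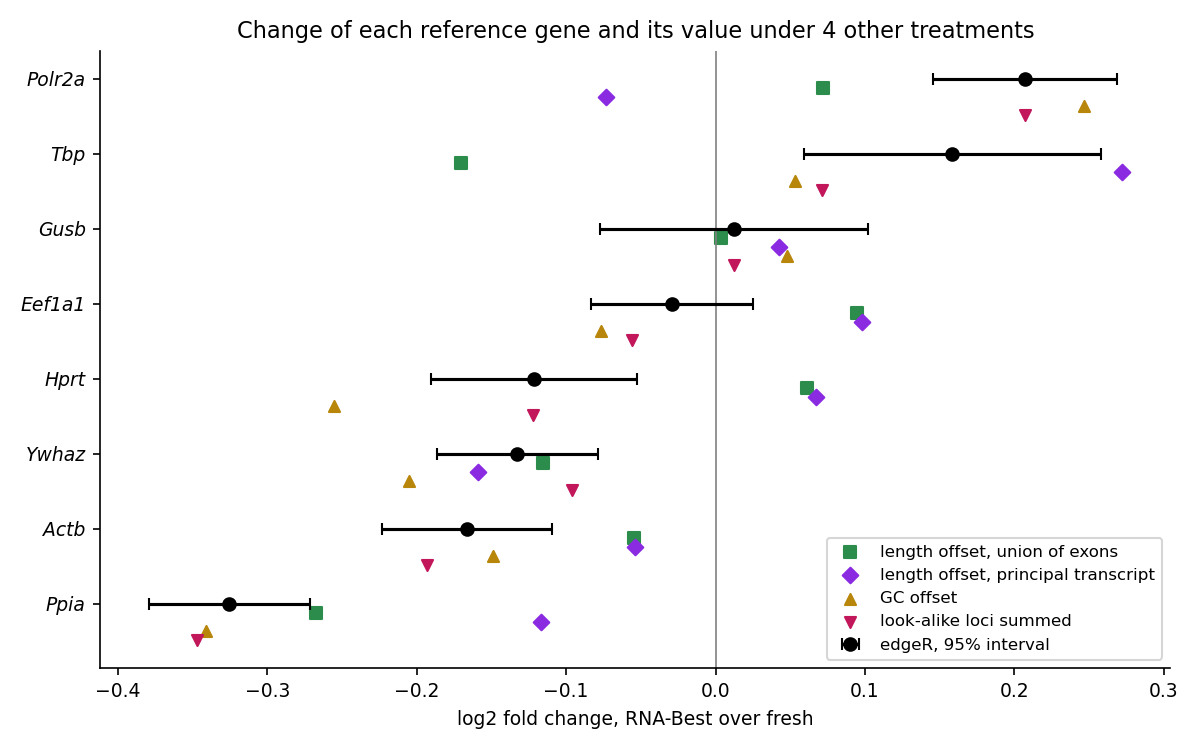
Log2 fold change of each reference gene with its 95% interval from edgeR (black), and its value with offsets for summed exon length, principal transcript length or GC content and with look-alike loci summed (coloured). Ppia and Ywhaz stay left of 0 in every treatment drawn, though Ppia moves from -0.33 to -0.12 with principal transcript lengths, whereas Hprt and Eef1a1 move to the right of 0 with either length offset and Tbp lies at -0.17 or 0.27 by the length used.

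Since a ratio of 2 genes does not depend on library size, all 28 pairs of reference genes were compared. In 21 pairs the 3 RNA-Best ratios did not overlap the 3 fresh ratios, against 52.0% of all pairs of genes tested. The smallest p an exact permutation test allows with 3 libraries against 3 is 0.1, so none of the pairs could pass 0.05. Ppia against Polr2a moved the most, from a log2 ratio of 1.93 ± 0.08 in fresh to 1.39 ± 0.03 in RNA-Best libraries (SD, n = 3), a change of 1.45-fold. Tbp against Ppia followed, from -4.70 ± 0.06 to -4.24 ± 0.02. These pairs join the genes that fell the most with genes that rose.

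In the other 7 pairs the groups overlapped. Hprt against Ywhaz differed by 0.01 on the log2 scale, Gusb against Eef1a1 by 0.03, Actb against Ywhaz by -0.03 and Actb against Hprt by -0.04. Tbp against Polr2a, the genes that rose, differed by -0.08. Actb against Gusb differed by -0.17 and still overlapped, as the SD of this ratio was 0.13 in RNA-Best libraries. The ratios of Hprt to Ywhaz and of Actb to Ywhaz were thus steady although each of these genes fell.

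**Figure D4:**
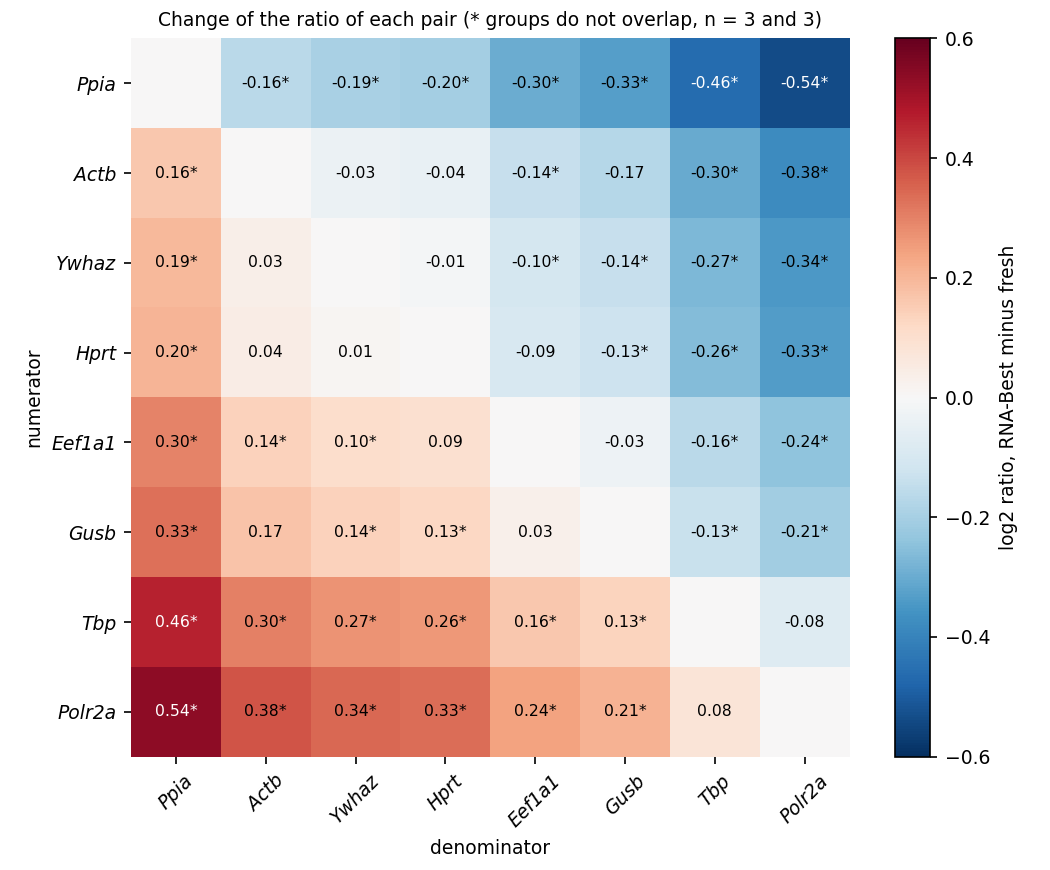
Difference of the log2 ratio of each row gene to each column gene, RNA-Best minus fresh (colour scale and printed values), with an asterisk where the 3 RNA-Best and 3 fresh libraries do not overlap. The corners with Ppia and Polr2a hold the extremes at -0.54 and 0.54, and the block of Actb, Ywhaz and Hprt is near 0.

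The expression stability M of a gene is the mean, over the other 7 genes, of the SD across libraries of its log2 ratio to each of them, with low values for steady genes. Over all 6 libraries M was lowest for Ywhaz at 0.0997, followed by Eef1a1 at 0.102, Hprt at 0.105, Gusb at 0.114, Actb at 0.117 and Tbp at 0.150. It was highest for Ppia at 0.177 and Polr2a at 0.180. The order at both ends changed when single libraries were left out. Without fresh replicate 3 M was lowest for Eef1a1 at 0.0932, followed by Hprt at 0.0965 and Ywhaz at 0.0984. Without fresh replicate 1 or 3 it was highest for Ppia. Stepwise removal of the least steady gene took out Polr2a, Tbp, Ppia, Gusb, Eef1a1 and Actb in turn and ended with Hprt and Ywhaz, whose ratio had an SD of 0.0401. Both genes of this last pair fell in RNA-Best cells, so the measure picked out genes that moved together.

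Within a single group the order was another one. The mean M of the 8 genes was 0.131 over all libraries but 0.0617 within the fresh and 0.0475 within the RNA-Best libraries. Ppia, among the least steady over both groups, had the lowest M within the fresh libraries, at 0.0476. Polr2a had 0.0352 within the RNA-Best libraries, the third lowest there, whereas Gusb had the highest at 0.0849. The last pair was Gusb and Hprt in fresh libraries and Ywhaz and Eef1a1 in RNA-Best libraries. The geometric mean of the 8 genes was 396 to 398 CPM in fresh and 383 to 390 CPM in RNA-Best libraries, 2.74% lower, with no overlap between the groups.

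The choice of reference changed the reading of GnRH target genes. Fos and Egr1 encode immediate-early transcription factors that GnRH induces. Relative to Ppia, Fos was higher in RNA-Best cells by 0.27 on the log2 scale, and relative to Polr2a lower by 0.27, and the groups did not overlap in either case. With Tbp the change was -0.19, again without overlap, while with the other 5 genes it lay between -0.06 and 0.11 and the groups overlapped. Relative to the geometric mean of the 8 genes Fos changed by -0.003 and with TMM scaling over all genes by -0.06, and the groups overlapped in both.

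Egr1 was higher by 0.39 relative to Ppia, by 0.23 relative to Actb, by 0.20 relative to Ywhaz, by 0.19 relative to Hprt and by 0.09 relative to Eef1a1, each without overlap. Relative to Polr2a it was lower by 0.15 without overlap, and relative to Gusb and Tbp the groups overlapped at 0.06 and -0.07. The geometric mean gave 0.12 and TMM scaling 0.06, both without overlap. In the edgeR test Egr1 passed as higher, with a log2 fold change of 0.06, and Fos did not pass. With the offset for principal transcript lengths 0 of the 2 targets were called higher and 1 was called lower. For either target, the highest and lowest change differed by 0.54 on the log2 scale, or 1.45-fold, which is the change of the Ppia to Polr2a ratio itself. No exact permutation p could be under 0.1.

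**Figure D5:**
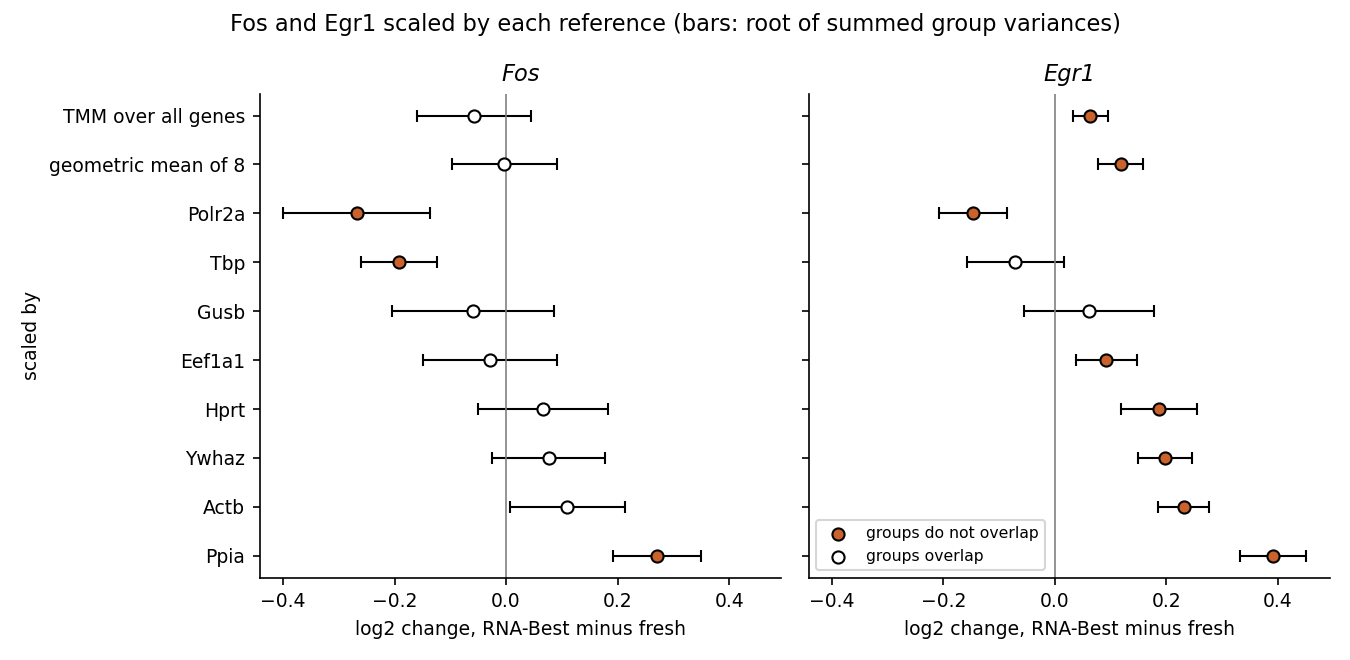
Log2 change of Fos (left) and Egr1 (right), RNA-Best minus fresh, after scaling by each reference gene, by the geometric mean of the 8 or by TMM (rows), with bars of the root of the summed variances of both groups (n = 3 and 3) and filled points where the groups do not overlap. Fos runs from -0.27 with Polr2a to 0.27 with Ppia, and Egr1 from -0.15 to 0.39.

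Levels of different genes were compared per kilobase of summed exons. In fresh libraries Eef1a1 was highest at 754 ± 22.2 CPM per kb, followed by Actb at 671 ± 16.5, Ppia at 360 ± 5.26, Ywhaz at 187 ± 3.03, Hprt at 131 ± 4.22, Polr2a at 46.9 ± 1.99, Gusb at 15.4 ± 0.400 and Tbp at 3.57 ± 0.182 CPM per kb (SD, n = 3). No neighbours in this order overlapped, and the order in RNA-Best libraries was the same. It depended on the length used. With principal transcripts Ppia stood at 1078 ± 15.8 and Eef1a1 at 1047 ± 30.9 CPM per kb with overlapping libraries, and Gusb at 26.0 ± 0.677 and Tbp at 25.6 ± 1.31 CPM per kb overlapped as well.

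Several reference genes had look-alike loci, here annotated genes that match the longest coding transcript at 90% identity or more over at least 200 bases. Ppia had 26, of which 24 were processed pseudogenes, Eef1a1 had 9, Tbp had 7, Actb had 2 and Ywhaz had 1, while Gusb, Hprt and Polr2a had 0. The share of read-length windows also found in other genes was 31.1% in Ppia, 26.1% in Eef1a1, 17.0% in Ywhaz, 14.3% in Tbp and 1.04% in Actb. The counts of such loci are uncertain, since the counting could divide or misplace reads between near-identical copies.

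Gm10123, a processed pseudogene on chromosome 9 identical to Ppia over 422 bases, was listed at 382.6, 398.5 and 378.3 CPM in fresh and at 300.3, 287.0 and 292.4 CPM in RNA-Best libraries. It fell together with Ppia (log2 fold change -0.41; edgeR adjusted p = 9.03e-14). Of the summed Ppia and look-alike counts, the look-alikes held 26.2% to 27.9% of the fresh and 25.7% to 26.3% of the RNA-Best libraries' counts. With these loci summed, the log2 fold change of Ppia was -0.35, so its fall was as large with the copies as without.

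Gm4202 on chromosome 3 matches Ywhaz at 99.9% over 733 bases and was listed at 58.0, 53.9 and 49.7 CPM in fresh and at 70.6, 66.8 and 70.9 CPM in RNA-Best libraries. It rose (log2 fold change 0.34; edgeR adjusted p = 3.71e-07) while Ywhaz fell. In fresh cells 6.11% to 6.88% of the summed counts were those of Gm4202, in preserved cells 8.68% to 9.06%, with no overlap. Summed with Ywhaz, the log2 fold change was -0.10 and still passed (edgeR adjusted p = 0.00278). Gm13456, the most abundant look-alike of Eef1a1, went from 211 ± 2.27 to 191 ± 2.13 CPM (log2 fold change -0.15; edgeR adjusted p = 8.35e-05), whereas Eef1a1 did not pass.

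For Actb the look-alikes were Actg1 and the pseudogene Gm15725, which was at 0 in all libraries. For Tbp the look-alike with most counts was Nom1, a nucleolar protein gene that matched over 257 bases of the long Tbp transcript, and Nom1 did not pass (log2 fold change 0.03; edgeR adjusted p = 0.653). Of the summed Tbp and look-alike counts, 59.4% to 61.4% in fresh and 56.5% to 59.1% in RNA-Best libraries were those of the other loci, mostly of Nom1. The sum (log2 fold change 0.07; edgeR adjusted p = 0.110) therefore says little of Tbp itself. In the Actb sum, 37.7% to 39.3% of the counts over the 6 libraries were those of Actg1, a separate actin gene.

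Genes that work with the 8 were examined from lists of their protein families and pathways, and each count of calls is read against the 50.8% of all genes tested that passed, 26.0% higher and 24.8% lower. Of the 11 other subunits of RNA polymerase II, 10 fell and 1 rose, with a median log2 fold change of -0.24 against -0.01 for all genes tested. These are mostly short genes, with a median of 1.51 kb of summed exons, and the 735 genes tested with a median length of 1.55 kb had a median log2 fold change of -0.19. With the offset for summed exon length 5 subunits fell and 1 rose (median -0.08), and with principal transcript lengths 2 fell and 2 rose (median -0.05), beside 38.2% and 35.7% of all genes called. The subunit that rose without an offset was Polr2b, the second largest, from 159 ± 2.91 to 186 ± 5.54 CPM (log2 fold change 0.20), beside 0.21 for Polr2a. The small subunit gene Polr2f fell the most, from 64.3 ± 2.59 to 47.7 ± 1.74 CPM (log2 fold change -0.44).

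Of 20 tested general transcription factor genes 5 rose and 7 fell (median -0.05), or 60.0% called against 50.8% of all genes. With the offset for summed exon length 7 rose and 6 fell, or 65% beside 38.2% of all genes. With principal transcript lengths 4 rose and 3 fell, or 35% beside 35.7%. Taf1, the largest TFIID subunit, rose by 0.49 and Taf3 by 0.28 on the log2 scale, while Taf10 fell by 0.23 and Gtf2e2 by 0.20. Of 11 tested cyclophilin genes 2 rose and 4 fell (median -0.003), or 54.5%, a share near that of all genes, with Nktr at 0.69, Ppig at 0.15, Ppil3 at -0.47 and Ppil1 at -0.24. With the offset for summed exon length 1 cyclophilin gene rose and 3 fell (median -0.04). With principal transcript lengths 4 rose and 2 fell (median 0.10), or 54.5% called beside 35.7% of all genes. Among 6 other 14-3-3 genes 3 fell and 0 rose, a share again near that of all genes. With the offset for summed exon length 0 were called, and with principal transcript lengths 1 rose and 1 fell. Ywhae was at -0.14, Ywhaq at -0.12 and Ywhab at -0.07, whereas Ywhag at 0.05, Ywhah at -0.05 and Sfn at -0.14 did not pass. Of 7 translation elongation genes 6 fell and 0 rose (median -0.17), and 5 fell with either length offset, the 6 including Eef1b2 at -0.35 and Eef1d at -0.26. Eef1a2, the paralog of Eef1a1, fell by 0.17 on the log2 scale, from 178 ± 5.65 to 159 ± 6.21 CPM.

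In the actin list 13 of 20 tested genes fell and 1 rose (median -0.15), where 24.8% of all genes fell and 26.0% rose. With the offset for summed exon length 6 fell and 2 rose, and with principal transcript lengths 4 fell and 1 rose (medians -0.04 and 0.01). The filament-severing gene Cfl1 fell by 0.26 and Actr2, a subunit of the Arp2/3 complex, rose by 0.14 on the log2 scale. Of 20 lysosomal hydrolase genes, the class to which Gusb belongs, 8 fell and 3 rose (median -0.03), or 55.0% called, near the 50.8% of all genes, with the protease gene Ctsd at -0.26 and the sulfatase gene Arsb at 0.34. With the offsets for summed exon and principal transcript length 60% and 45% of them were called, beside 38.2% and 35.7% of all genes. Of 15 purine genes 7 fell and 3 rose (median -0.10), or 66.7% called. With the offset for summed exon length 6 fell and 2 rose, or 53.3% beside 38.2% of all genes. With principal transcript lengths 5 fell and 0 rose, or 33.3% beside 35.7%. Aprt, which salvages adenine as Hprt salvages hypoxanthine and guanine, fell by 0.41, and Pfas of the synthesis pathway rose by 0.23.

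Other genes used as references were examined too. Of 5 genes that the study used as house-keeping genes beside Eef1a1, 4 fell (median -0.26), and 3 and 2 fell with the offsets for summed exon and principal transcript length. Gapdh, a glycolytic enzyme gene, went from 1226, 1283 and 1293 CPM in fresh to 1097, 1023 and 981.1 CPM in RNA-Best libraries, with a log2 fold change of -0.31. The histone gene H2afz was at -0.26 and the ribosomal protein gene Rps25 at -0.27, both without overlap between the groups. B2m, the light chain of class I molecules, was at -0.08 and did not pass (edgeR adjusted p = 0.348). Of 33 further common reference genes 22 fell and 6 rose (median -0.17), or 84.8% called against 50.8% of all genes, of which 24.8% fell and 26.0% rose. The 50.8% is over genes of all levels, and no share called among genes of a similar level was computed. With the offset for summed exon length 18 of the 33 fell and 3 rose (median -0.09), and with principal transcript lengths 16 fell and 6 rose (median -0.06). Among them the ribosomal protein gene Rpl13a was at -0.48 and the topoisomerase gene Top1 at 0.26.

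The genes with the profile most like that of each reference gene were found by the Pearson correlation of log2(CPM + 1) over the 6 libraries, among 8405 genes of at least 20 CPM. As the libraries form 2 groups, this is a description of the joint profile. The closest were Mrps24 and Mdh2 for Ppia (r = 0.9999 and 0.9993), Fopnl and Atp5f1 for Ywhaz (0.998 and 0.995), Pias1 and Steap2 for Polr2a (0.998 and 0.997) and Usp18 and Gm17019 for Actb (0.996 and 0.993). They were Skp1a and Pop5 for Hprt (0.995 and 0.994) and Lmbrd1 and Phykpl for Tbp (0.994 and 0.988). Gusb and Eef1a1, which did not pass, had looser neighbours, Mak16 and Nom1 at 0.966 and 0.956 and Ube2q1 and Tmcc2 at 0.955 and 0.952.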

How the data were processed

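The mRNA libraries of 3 fresh and 3 RNA-Best-preserved samples of cells were made with an unstranded TruSeq kit, with single-end sequencing. The authors aligned reads to GRCm38 (mm10) with STAR 2.5.1b and counted them per gene with featureCounts 1.5.0-p1. The deposited values are estimated counts, not scaled for library size, and some are not whole numbers, as arises when a read is split between genes. Here they were rounded to whole numbers and fitted with the quasi-likelihood test of edgeR 4.0.16 in R 4.3.3, with TMM scaling, filterByExpr (minimum count 10) and Benjamini-Hochberg adjustment over 14736 genes. CPM were computed from column totals. Intervals are 95% intervals of the fit.

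Members and gene lists were chosen with earlier results of these data known. Named are the 8 genes, 5 genes that the study used as house-keeping genes beside Eef1a1, at most the 2 highest and 2 lowest called genes of each list, paralogs of members, the look-alike with most counts, the 2 genes most alike in profile, and Fos and Egr1. Some of the genes that this rule names are not reported here. Members were matched by Ensembl identifier. Exons, lengths, principal transcripts (APPRIS, the lowest-numbered per gene) and look-alikes (blastn 2.17.0+) came from a GENCODE release later than that of the authors, on the same assembly. Length and GC offsets were loess fits (span 0.5) in each library. Their smoothing was revised after a first version left part of the length trend, and the principal-transcript version was added after the data were seen. In counts simulated over 14596 genes, edgeR found 56% of genes changed 1.2-fold, 84% at 1.5-fold and 100% at 4-fold, beside 5 false calls. The simulated counts had the same dispersion for all genes and no length trend, so these shares need not hold for the data. Replicate numbers did not pair the samples. Alternatives were RLE factors, column totals, DESeq2 1.42.0, limma-voom (limma 3.58.1), which the study used, other filters, a replicate block, thinning to the smallest library, rounding down, summing look-alikes and leaving out single libraries. All 6 count columns were used. The single-cell and qPCR parts of the study were not used here.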

Additional observations from a re-analysis of the deposited data

How the results depend on the processing

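The number of reference genes called was 4 to 6 under 20 other settings, but not always of the same genes. All 6 calls kept their direction in 12 settings, and 3 to 5 did in the other 8, with the fewest, 3, under each length offset, the one with the block included. Without single libraries 5 to 6 were kept. Tbp was not called higher in 7 settings, and in 2 of these, the offset for summed exon length alone or with the block, it was called lower. The genes called higher were 1 in place of 2 with no filter, with the GC offset, with thinning and with look-alikes summed, and 1 to 2 without single libraries, the 1 being without RNA-Best replicate 3. Eef1a1 gained a call with no filter, the GC offset and the length offsets. Of 160 gene and setting combinations 134 kept direction and side of the threshold, 9 lost and 2 gained a call in the same direction, and 15 changed sign. In the summed counts of Tbp and its look-alikes 56.5% to 61.4% were those of other genes. Calls in the lists of related genes fell from 115 to 91 with the length offset and 78 with principal lengths. The length offset gave -0.17 for Tbp, 0.061 for Hprt and 0.095 for Eef1a1. With principal transcript lengths Hprt was at 0.068, Eef1a1 at 0.098 and Polr2a at -0.074. Genes called among all tested fell from 7479 to 4366 of 12227 with principal lengths, where fewer genes could be tested. Gusb, never called, was at -0.035 with no filter, -0.055 with thinning and between -0.031 and 0.058 without single libraries, negative when fresh replicate 2 or RNA-Best replicate 3 was left out. The causes of these changes were not tested beyond the settings.

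The replicate block kept all 6 calls among the reference genes and 7472 over all genes, and put Gusb at -0.0055. With the block and the length offset together, Gusb was at -0.014, Hprt at 0.056, Tbp at -0.20 and Eef1a1 at 0.097. Deviations of libraries with the same number correlated at -0.0084, 0.0121 and -0.0077.

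Mean M was 0.131, against 0.0617 within fresh, 0.0475 within RNA-Best, 0.124 with look-alikes summed and 0.126 to 0.135 without single libraries. The highest level per kilobase was 211 times the lowest in fresh libraries, 277 times by the longest transcript and 42.1 times by the principal transcript. The median change of Fos over single references was 0.02 and turned to -0.0030 with the geometric mean and -0.057 with TMM, and that of Egr1 went from 0.14 to 0.064 with TMM. The 21 separated pairs became 18 with look-alikes summed. The lower depth of RNA-Best libraries, down to 4909418 counts, limits Gusb and Tbp most, and intervals cover counting error and spread between these libraries only.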
